A study of Mus musculus with 22 samples.

Results

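Genes for voltage-gated sodium and calcium channels and for potassium channels were followed by RNA-seq through 6 groups of cells sorted from the mouse spinal cord and its meninges at E12.5 (embryonic day). A gene belonged to the set by its symbol alone: Scn, a number and a (sodium channel alpha subunits), Cacna (calcium channel pore and alpha2delta subunits), or Kcn, letters and a number (potassium channel subunits), with Kcne3 and Kcnj8 left out. This rule took 114 of the 55376 genes in the count tables, made up of 10 sodium channel genes, 14 calcium channel genes, 40 voltage-gated potassium channel genes, 40 other potassium channel genes and 10 potassium channel auxiliary genes. In the knockout series, spinal cord and meninges were dissected as a unit, embryos were pooled by genotype, and endothelial cells carrying a Kdr-Cherry reporter and motor neurons carrying an ISL1-fGFP reporter were sorted from wild-type and Plxnd1 knockout embryos. Plxnd1 encodes plexin D1, a semaphorin receptor of developing vessels and neurons. In the regional series, all cells were wild-type Kdr-Cherry+ endothelial cells, taken either from the cord tissue itself (ventral cord in batches 1 to 3, whole cord in batches 4 and 5) or from the meninges that wrap it. The question these groups pose for ion channels is which subunits each sorted population holds, whether loss of Plxnd1 changes them, and how vessels inside and outside the cord differ. The mouse strain and the number of embryos in a pool were not given in the sources used here.

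Voltage-gated sodium channels open on depolarisation and carry the upstroke of the action potential, calcium channels couple depolarisation to transmitter release and gene expression, and potassium channels repolarise the membrane or hold it at rest. Most neuronal channel genes are switched on as spinal neurons leave the cell cycle and extend axons. Endothelial cells do not fire action potentials, and potassium channels of the inward rectifier, calcium-activated and background families set their resting potential.

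The knockout series held 11 usable libraries of 20680902 to 27035395 counts and the regional series 10 libraries of 15685784 to 21493255 counts. The file of wild-type endothelial batch 2 repeated that of knockout endothelial batch 1 in all 55376 genes and was left out, so wild-type endothelial cells have n = 2 (batches 1 and 3), the other groups of that series have n = 3 and the regional groups have n = 5. Plxnd1 stood at 213 and 175 CPM (a read count scaled to library size and composition) in the wild-type endothelial libraries and at 28.9, 15.4 and 18.7 CPM in the knockout ones, and at 5.14 to 12.1 CPM in wild-type against 0.645 to 1.79 CPM in knockout motor neurons. The 2 series were counted in different ways, and no level is compared between them. Both sorts held transcripts from lists chosen for other cells. In the 3 wild-type motor neuron libraries, a list of 10 interneuron genes, Lhx1 and Slc17a6 among them, summed to 2373 to 2919 CPM. The 16 motor neuron genes summed to 1404 to 3114 CPM there. In the wild-type endothelial libraries, 10 mesenchymal genes summed to 15699 and 15885 CPM beside 1322 and 2107 CPM for 20 endothelial genes. The sums do not give shares of cells, and which cells held the listed genes was not tested. All of these marker genes were detected in those groups, and a lower level may be fewer cells of a type or less RNA per cell, which cannot be told apart in sorted bulk samples. In the text, values in threes are batches 1, 2 and 3, values in fives are batches 1 to 5, and pairs of wild-type endothelial values are batches 1 and 3.

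Channel genes made up 0.374 to 0.379% of all counts in wild-type motor neuron libraries and 0.125 to 0.157% in wild-type endothelial libraries. The share was 0.100 to 0.157% in spinal and 0.0823 to 0.113% in meningeal endothelial libraries. Of the 114 genes, 21 stayed under 1 CPM in every library, among them the skeletal muscle genes Scn4a and Cacna1s, although none was without a count in all 21 libraries. After the filter on low counts, 98 genes entered at least 1 test and 16 entered none.

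Motor neurons and endothelial cells of wild-type embryos differed in most channel genes tested. Of the 98 channel genes tested, 57 were higher in motor neurons and 17 were higher in endothelial cells at an adjusted p under 0.05, against a background of 31.0% of all 19266 genes tested that were higher in motor neurons and 33.8% that were lower (edgeR quasi-likelihood test with Benjamini-Hochberg adjustment). The median log2 difference, motor neuron over endothelial, was 1.57 over the channel genes and -0.02 over all genes tested. By type, 5 of 10 sodium, 10 of 13 calcium, 22 of 35 voltage-gated potassium, 14 of 32 other potassium and 6 of 8 auxiliary genes tested were higher in motor neurons, whereas 1, 1, 2, 11 and 2 of them were higher in endothelial cells. Leaving out a library in turn gave 49 to 58 genes higher in motor neurons and 16 to 18 genes lower. With the batch as a block, the counts were 56 and 16, and the call of the R-type calcium channel pore Cacna1e was lost (log2 difference 0.74 ± 0.27, edgeR adjusted p = 0.0327; with the block 0.64, adjusted p = 0.0716).

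**Figure D1:**
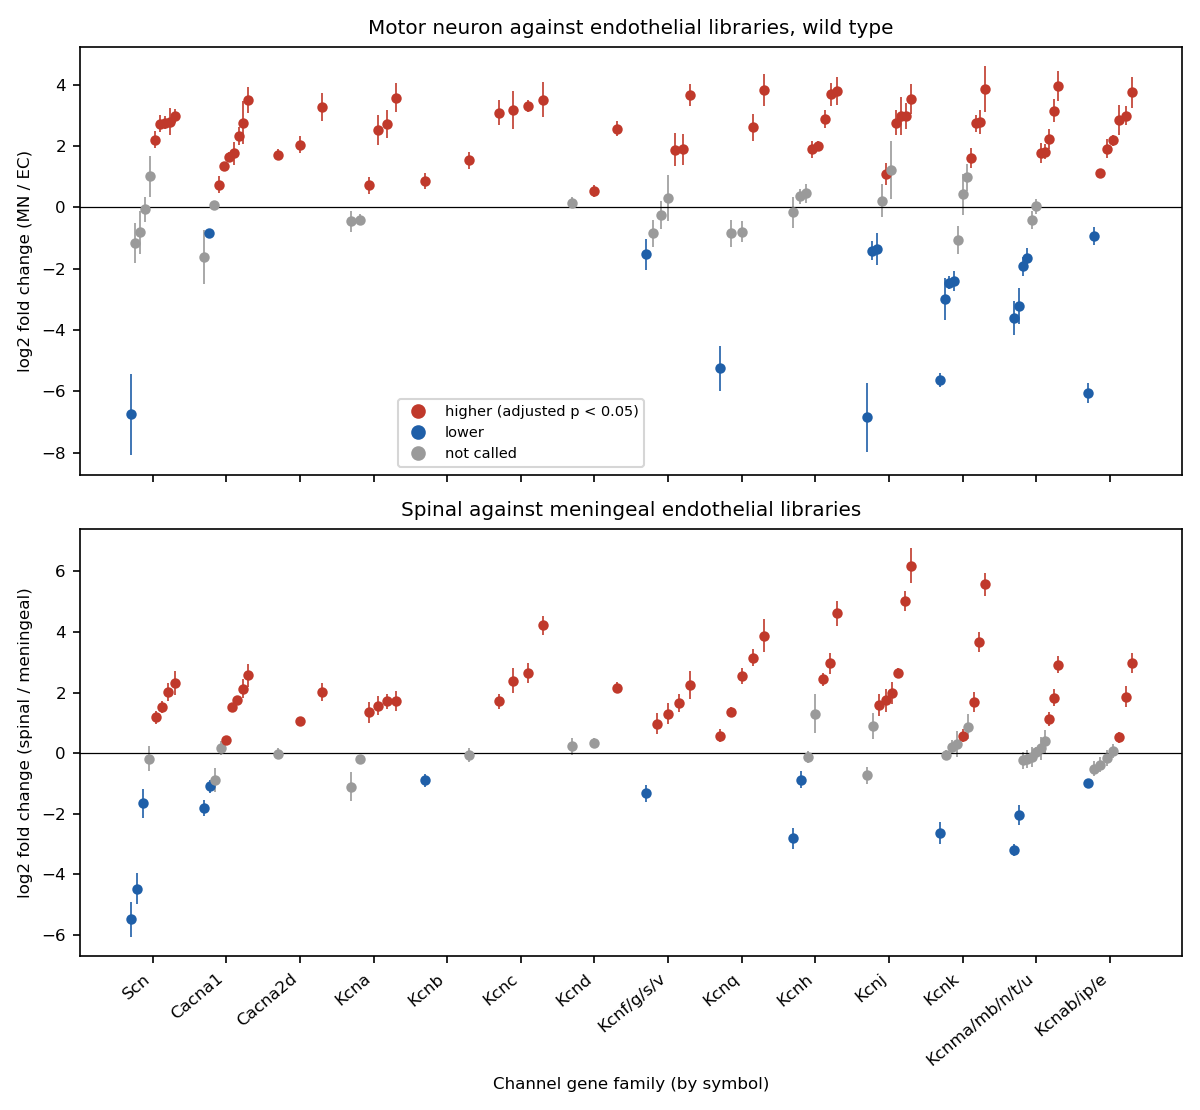
Log2 fold change of every channel gene tested, by family (points; bars are the standard error of the fit), for wild-type motor neuron over endothelial libraries (top) and spinal over meningeal endothelial libraries (bottom); red is higher and blue lower in the first group at an edgeR adjusted p under 0.05, grey is not called. In the Cacna2d family all genes tested were higher in motor neurons, and Kcnk and the calcium-activated families spread in both directions.

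Sodium channel alpha subunits were led by Scn3a, the subunit known as the embryonic form of the brain. Scn3a (mm10 chromosome 2, 65457118 to 65567627) stood at 314, 332 and 300.1 CPM in the wild-type motor neuron libraries and at 34.2 and 45.4 CPM in the endothelial ones. The groups were far apart, with a log2 difference of 2.99 ± 0.24 (SE; edgeR adjusted p = 2.13e-06). Per kilobase of exon, Scn3a reached 32.5 ± 1.64 RPKM (SD, n = 3) in motor neurons and took 50.3% of the summed level of its family. Scn2a, which lies next to it and serves early axons, stood at 97.8 ± 5.52 CPM (SD, n = 3) in motor neurons and 14.3 ± 1.70 CPM (SD, n = 2) in endothelial libraries (log2 difference 2.77 ± 0.21, edgeR adjusted p = 1.51e-06). Scn1a and Scn9a of the same chromosome 2 cluster and Scn8a of chromosome 15, the main subunit of mature nodes of Ranvier, were also higher in motor neurons, with log2 differences of 2.74 ± 0.27, 2.80 ± 0.44 and 2.21 ± 0.27 in the edgeR fit.

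The remaining sodium channel genes did not follow these 5. Scn4a, the skeletal muscle form, had no count in the 3 wild-type motor neuron libraries and 30 counts in the endothelial pair, which made it at least 12.4-fold higher there against a floor of 3 counts over the motor neuron group. Scn10a and Scn11a, the subunits of pain-sensing neurons on chromosome 9, and Scn7a, an atypical member that senses extracellular sodium, were not called in wild-type libraries. Scn11a stayed under 1 CPM in every library.

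Calcium channel genes included some of the most abundant channel transcripts of both populations. Cacna1b, the pore of the N-type channel of nerve terminals, stood at 191, 208 and 220.1 CPM in motor neurons and 10.9 and 25.5 CPM in endothelial libraries. Cacna1b showed the largest log2 difference of the calcium channel genes in the edgeR fit, 3.502 ± 0.42 (adjusted p = 3.4e-05), and did not overlap between groups. The P/Q-type pore Cacna1a stood at 105, 101 and 118 against 15.9 and 27.2 CPM (log2 difference 2.32 ± 0.29, edgeR adjusted p = 5.27e-05). Pores of the T-type, the low-voltage class that opens near rest, were high in both populations. Cacna1h stood at 259, 259 and 299 CPM in motor neurons and 96.5 and 118 CPM in endothelial libraries, a log2 difference of 1.35 ± 0.15 (edgeR adjusted p = 2.46e-05).

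Cacna1g, the other abundant T-type pore, did not differ beyond the spread of the libraries. It stood at 271, 283 and 270.3 CPM in motor neurons and at 250.3 and 275 CPM in endothelial libraries, and the groups overlapped. The log2 difference was 0.07 ± 0.12 (edgeR adjusted p = 0.655). At 30.9 ± 2.06 RPKM (SD, n = 2), Cacna1g was the highest channel gene per length in wild-type endothelial libraries, and at 32.3 ± 0.836 RPKM (SD, n = 3) it was also among the highest in motor neurons. Of the L-type pores, Cacna1d was higher in motor neurons, and Cacna1c, the pore of heart and smooth muscle, was higher in endothelial libraries at 93.0 and 94.8 against 48.0, 53.8 and 55.4 CPM (log2 difference -0.84 ± 0.11, edgeR adjusted p = 7.54e-05).

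The alpha2delta subunits carry calcium channels to the surface. Cacna2d2 reached 214, 186 and 275 CPM in motor neurons and 12.9 and 33.8 CPM in endothelial libraries, a log2 difference of 3.27 ± 0.46 (edgeR adjusted p = 0.000118). It was among the highest channel genes per length in motor neurons at 38.6 ± 7.81 RPKM (SD, n = 3). Cacna2d1 and Cacna2d3 were higher in motor neurons by 1.73 ± 0.18 and 2.05 ± 0.28 on the log2 scale in the same fit, and Cacna2d4, a retinal subunit, stayed under 1 CPM in every library.

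Among voltage-gated potassium channels, Kcnq3 encodes a subunit of the M-channel, a slow potassium conductance that limits repetitive firing. Kcnq3 stood at 45.0, 41.8 and 41.7 CPM in motor neurons and 4.62 and 9.29 CPM in endothelial libraries. The groups did not overlap, with a log2 difference of 2.62 ± 0.44 (edgeR adjusted p = 0.000386), and Kcnq3 was at 3.62 ± 0.158 RPKM (SD, n = 3) in motor neurons.

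The Kcnh family, relatives of the ether-a-go-go channel of the fly, had 5 of 8 genes higher in motor neurons and none lower. Kcnh2, the channel that repolarises the heart, led the family at 109.6, 116 and 118 CPM in motor neurons against 26.7 and 30.7 CPM in endothelial libraries (log2 difference 1.996 ± 0.16, edgeR adjusted p = 2.5e-06). Kcnh4 and Kcnh8, 2 brain members of the Elk branch, differed more. Kcnh4 had 55.7, 57.2 and 54.2 CPM against 2.17 and 5.83 CPM (log2 difference 3.80 ± 0.47, edgeR adjusted p = 4.27e-05). Kcnh8 had 18.3, 18.1 and 19.9 CPM against 0.782 and 2.12 CPM (log2 difference 3.69 ± 0.37, edgeR adjusted p = 1.01e-05).

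Kcnc1, Kcnc2 and Kcnc4, whose channels open fast and let neurons fire at high rates, were higher in motor neurons, with log2 differences of 3.52 ± 0.56, 3.32 ± 0.20 and 3.19 ± 0.62. Kcnc1 stood at 67.3, 63.7 and 82.2 CPM in motor neurons and 3.13 and 9.25 CPM in endothelial libraries. In the Kcnd family of A-type channels, Kcnd2 differed by 2.58 ± 0.26 and Kcnd3 by 0.54 ± 0.19 on the log2 scale, whereas Kcnd1 was not called. The call of Kcnd3 was lost without endothelial batch 1 (edgeR adjusted p = 0.300), motor neuron batch 2 (0.0549) or motor neuron batch 1 (0.0718). Kcna4, another A-type channel, had 13.9, 7.68 and 15.3 CPM against 0.675 and 1.37 CPM (log2 difference 3.59 ± 0.46, edgeR adjusted p = 6.04e-05). The most abundant Kcna gene per length, Kcna6, was not called, and 40.4% of its exon bases lie opposite another gene, whose reads the unstranded counting of this series cannot separate. Kcnf1, a silent subunit that only works in complexes with Kcnb channels, had 16.3, 15.7 and 15.5 CPM against 0.782 and 1.69 CPM (log2 difference 3.68 ± 0.36, edgeR adjusted p = 8.89e-06), and Kcnb2, a delayed rectifier, was also higher in motor neurons, by 1.54 ± 0.27 on the log2 scale.

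Outside the voltage-gated classes, Kcnma1 was among the genes with the largest log2 differences towards wild-type motor neurons. It encodes the pore of the large-conductance calcium-activated channel. Kcnma1 stood at 78.5, 81.5 and 80.9 CPM in motor neurons and 2.98 and 7.31 CPM in endothelial libraries, a log2 difference of 3.96 ± 0.48 (edgeR adjusted p = 3.82e-05) that was 4.75 without endothelial batch 3 and 3.45 without endothelial batch 1. Kcnk9, an acid-sensitive background channel, had 56.4, 41.8 and 63.6 CPM against 2.03 and 5.399 CPM (log2 difference 3.86 ± 0.74, edgeR adjusted p = 0.000964). Its relative Kcnk3 and the mechanically gated Kcnk10 were also higher in motor neurons. Kcnj9, a G protein-gated inward rectifier, had 8.14, 6.53 and 8.42 CPM against 0.249 and 1.08 CPM (log2 difference 3.53 ± 0.49, edgeR adjusted p = 0.000102), and the related Kcnj3 and Kcnj6 moved the same way. The small-conductance channel Kcnn1 was the highest of its class per length, at 21.4 ± 2.66 RPKM (SD, n = 3) in motor neurons and 2.39 ± 1.42 RPKM (SD, n = 2) in endothelial libraries.

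Of the auxiliary subunits, Kcnip1 stood out in motor neurons. It belongs to the calcium-binding proteins that attach to Kcnd channels. Kcnip1 had 61.3, 75.1 and 44.2 CPM in motor neurons and 2.31 and 6.55 CPM in endothelial libraries (log2 difference 3.76 ± 0.50, edgeR adjusted p = 7.71e-05). Kcnip2, Kcnip4 and the 3 Kcnab genes, which encode beta subunits of Kcna channels, were also higher in motor neurons, and Kcnip3 and Kcne4 were lower.

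**Figure D2:**
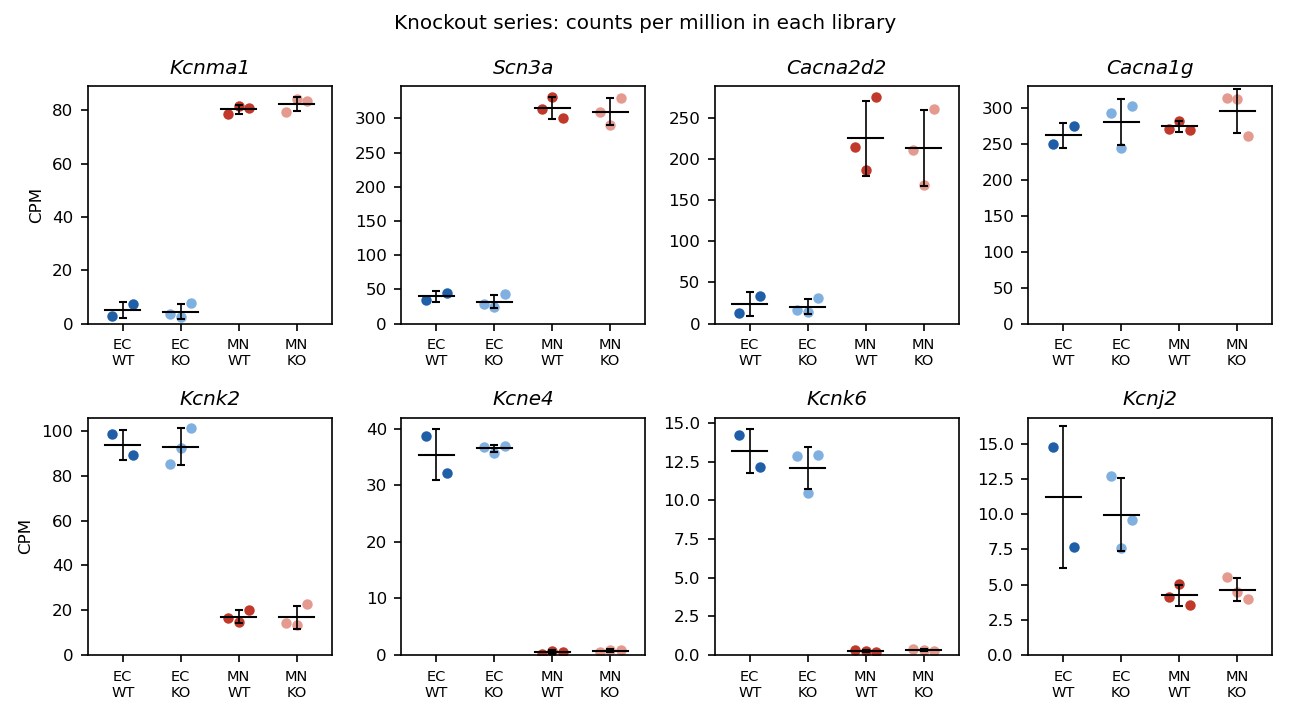
CPM (linear axes from 0) of 8 channel genes in each library of the knockout series (points), with the mean of each group (line) and its SD (bars), for wild-type and Plxnd1 knockout endothelial (EC) and motor neuron (MN) libraries. Kcne4, Kcnk6 and Kcnk2 are high in endothelial libraries of both genotypes, Kcnma1, Scn3a and Cacna2d2 are high in motor neuron libraries of both genotypes, and Cacna1g is at a like level in all 4 groups.

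Of the 17 genes higher in endothelial libraries, 3 were inward rectifiers, 4 were background channels of the Kcnk family and 4 belonged to the calcium- or sodium-activated channels and their subunits. Kcne4, a small subunit that inhibits Kcnq1 and some Kcna channels, had the largest fitted difference of those counted in both groups, at 38.7 and 32.2 CPM in endothelial libraries and 0.246, 0.768 and 0.586 CPM in motor neurons. Its log2 difference, motor neuron over endothelial, was -6.06 ± 0.32 (edgeR adjusted p = 1.57e-07). Kcnk6, a background channel of weak inward rectification, had 14.2 and 12.2 CPM against 0.327, 0.240 and 0.209 CPM in motor neurons (log2 difference -5.64 ± 0.24, edgeR adjusted p = 4.25e-08). Kcnk2, a background channel gated by stretch and fatty acids, was the most abundant of the 17 per length, at 22.4 ± 1.61 RPKM (SD, n = 2) in endothelial libraries. It had 98.8 and 89.2 CPM there, close to Cacna1c in CPM, against 16.6, 14.8 and 20.2 CPM in motor neurons (log2 difference -2.45 ± 0.21, edgeR adjusted p = 3.31e-06). Of its exon bases, 14.4% lie opposite another gene. Together Kcnk2 and Kcnk6 led a Kcnk family whose summed level was higher in endothelial libraries, 31.9 RPKM, than in motor neurons, 20.4 RPKM.

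Kcnq1, which pairs with Kcne subunits in heart and epithelia, had 4.37 and 2.63 CPM in endothelial libraries and 0.0818, 0.0960 and 0.0837 CPM in motor neurons (log2 difference -5.25 ± 0.73, edgeR adjusted p = 9.87e-05). Kcnn4, the intermediate-conductance calcium-activated channel of endothelium and blood cells, had 3.34 and 1.73 CPM against 0.205, 0.288 and 0.126 CPM (log2 difference -3.61 ± 0.56, edgeR adjusted p = 0.000232). Kcnmb1, the subunit that tunes Kcnma1 channels in vascular smooth muscle, stood near 1.13 ± 0.217 CPM (SD, n = 2) in endothelial libraries and 0.121 ± 0.105 CPM (SD, n = 3) in motor neurons. Kcnk5 and Kcnk13 were also higher in endothelial libraries, with log2 differences of -2.400 ± 0.32 and -2.98 ± 0.69 in the edgeR fit. Kcnj15, an inward rectifier, had no count in motor neurons and 32 counts in the endothelial pair, at least 13.2-fold higher against a floor of 3 counts over the motor neuron group.

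Kcnj2, a strong inward rectifier of heart, skeletal muscle and capillary endothelium, had 14.7 and 7.67 CPM in endothelial libraries and 4.13, 5.04 and 3.52 CPM in motor neurons (log2 difference -1.41 ± 0.31, edgeR adjusted p = 0.00222). Kcnj10, the inward rectifier of glia, was the least secure of the 17. It had 4.09 and 14.4 CPM in endothelial libraries and 4.83, 2.26 and 3.73 CPM in motor neurons, and it was the only called gene of this comparison whose groups overlapped. The call (log2 difference -1.35 ± 0.52, edgeR adjusted p = 0.0403) was lost with the batch as a block (-0.98, edgeR adjusted p = 0.0562) and without endothelial batch 3 (-0.18, edgeR adjusted p = 0.796). Without either endothelial library or motor neuron batch 2 the call of Kcns3 was lost too (edgeR adjusted p = 0.0587 to 0.0828), as was that of Kcnip3 without endothelial batch 3 (0.107). Kcnt2 and Kcnmb2 completed the set together with Cacna1c and Scn4a, described above. Several lists of other cell types moved with these genes. All 10 mesenchymal, all 10 pericyte and smooth muscle, all 10 macrophage and all 10 erythroid genes were higher in the endothelial libraries than in motor neurons. So were 7 of 10 neural progenitor, 5 of 8 muscle and cartilage, 3 of 12 sensory neuron and 1 of 7 Schwann and neural crest genes tested. Higher in motor neurons were 8 of 10 interneuron, 1 neural progenitor and 1 muscle and cartilage genes, and none of 4 liver genes was called. Which of these cells held each channel transcript was not tested.

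The start regions of 4 genes are shown as examples from both directions: Kcnma1 and Kcnh8 are among the genes with the largest log2 differences towards motor neurons, Kcne4 had the largest towards endothelial cells of the genes counted in both groups, and Kcnj2 was higher in endothelial cells and, among these, in cord vessels. Each runs from 250 bases before to 50 bases after the RefSeq start in GRCm38.p6 (mm10), 5′ to 3′ on the gene's strand, with CG dinucleotides in capitals. Kcnma1 lies on the minus strand at chr14:24004156-24004455, Kcnh8 on the plus strand at chr17:52602459-52602758, Kcne4 on the plus strand at chr1:78816661-78816960 and Kcnj2 on the plus strand at chr11:111065914-111066213.
Kcnma1: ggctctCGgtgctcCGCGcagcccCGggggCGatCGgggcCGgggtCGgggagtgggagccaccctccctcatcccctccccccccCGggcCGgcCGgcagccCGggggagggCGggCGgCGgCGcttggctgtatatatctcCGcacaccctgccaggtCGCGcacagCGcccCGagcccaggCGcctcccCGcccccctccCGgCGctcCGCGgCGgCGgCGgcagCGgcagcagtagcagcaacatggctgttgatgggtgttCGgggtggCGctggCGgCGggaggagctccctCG
Kcnh8: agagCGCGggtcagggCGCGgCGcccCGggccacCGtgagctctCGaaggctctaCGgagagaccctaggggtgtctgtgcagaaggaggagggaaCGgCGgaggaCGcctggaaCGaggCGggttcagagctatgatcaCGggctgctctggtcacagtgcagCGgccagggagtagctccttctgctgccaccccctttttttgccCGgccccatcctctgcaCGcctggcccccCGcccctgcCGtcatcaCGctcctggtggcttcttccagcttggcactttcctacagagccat
Kcne4: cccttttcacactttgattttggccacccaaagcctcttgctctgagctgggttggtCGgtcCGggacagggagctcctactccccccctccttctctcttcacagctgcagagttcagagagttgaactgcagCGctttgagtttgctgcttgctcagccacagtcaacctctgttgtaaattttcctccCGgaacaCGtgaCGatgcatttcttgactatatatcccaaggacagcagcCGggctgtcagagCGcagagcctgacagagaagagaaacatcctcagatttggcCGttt
Kcnj2: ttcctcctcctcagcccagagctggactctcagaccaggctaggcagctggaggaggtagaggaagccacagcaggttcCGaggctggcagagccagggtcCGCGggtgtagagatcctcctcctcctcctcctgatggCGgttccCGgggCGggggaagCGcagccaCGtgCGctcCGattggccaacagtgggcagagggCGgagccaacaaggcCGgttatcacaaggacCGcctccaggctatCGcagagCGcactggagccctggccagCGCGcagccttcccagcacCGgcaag
The Kcnma1 window held 36 CG dinucleotides, that of Kcnh8 held 21, that of Kcnj2 held 18 and that of Kcne4 held 9.

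RefSeq gave such a window for 83 of the 114 channel genes. The median number of CG dinucleotides was 7 over the 27025 genes with a window, 10 over the channel genes, 19 over 39 of the genes higher in motor neurons and 9 over 15 of the genes higher in endothelial cells. The motif GGGCGG, searched on both strands, was present in 35.9% of all windows, 50.6% of the channel gene windows, 58.97% (23 of 39) of those higher in motor neurons and 33.3% (5 of 15) of those higher in endothelial cells. TATAAA was found in 14.2% of all windows and 4.82% of the channel gene windows. TTCAGCACC, the first part of the element bound by the neuronal gene repressor REST, was found in 0.359% of all windows, in 1.20% (1 of 83) of the channel gene windows and in 0 of the windows of either called group. These shares are descriptions of this window only, and no test was made of them.

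The endothelial libraries also held transcripts of the genes that were higher in motor neurons. For the 57 genes, the mean endothelial level was 6.41 to 68.6% of the mean motor neuron level in wild-type libraries, with a median of 15.0%. For a list of 16 pan-neuronal genes such as Tubb3 and Snap25, the same share was 5.06 to 12.3%, with a median of 8.36%. The share of 40 channel genes was above the highest of the 16, the share of the other 17 lay within their range, and none lay below it. The 57 genes were picked as higher in motor neurons from the same values, which bounds their share from above. Genes within the range included Kcnma1, Kcnh4, Kcnh8, Kcnc1 and Kcnk9. Genes above it included Cacna1h, Cacna2d1, Kcnh2, Kcnt1 and Scn2a.

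The 2 wild-type endothelial libraries differed in their neuronal content. The pan-neuronal list summed to 826 CPM in batch 1 and 2055 CPM in batch 3, and all 16 of its genes were higher in batch 3, with a median ratio of 2.44. Of the 57 channel genes higher in motor neurons, 52 were higher in batch 3, with a median ratio of 1.597. Of the 17 channel genes higher in endothelial cells, 6 were higher in batch 3, with a median ratio of 0.833. Both groups of channel genes were called with these same 2 libraries, and the share of all genes higher in batch 3 is not given here. The counts are therefore not read as a trait of channel genes. The part of the difference between the 2 libraries in the levels above was not tested.

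**Figure D3:**
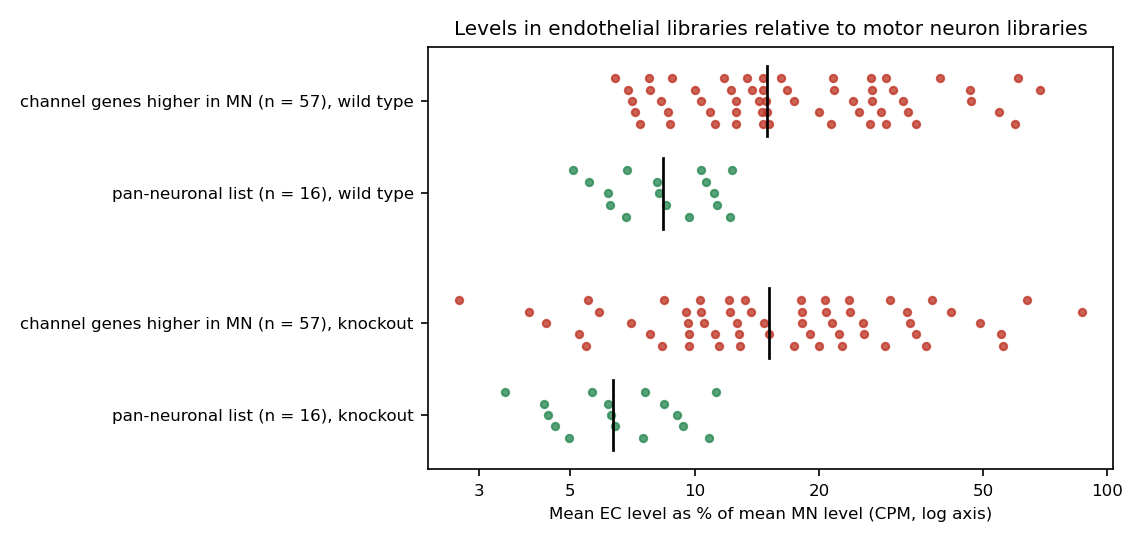
Mean endothelial (EC) level as a percentage of the mean motor neuron (MN) level, from CPM, on a log axis, for the 57 channel genes higher in wild-type motor neurons and for 16 pan-neuronal genes, in wild-type (top) and Plxnd1 knockout (bottom) libraries; each point is a gene and the line is the median. In wild-type libraries the channel genes spread from 6.41 to 68.6% and the pan-neuronal genes from 5.06 to 12.3%.

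The same comparison in Plxnd1 knockout libraries, which share no library with the wild-type one but share its estimate of the spread, gave 60 genes higher and 18 lower in motor neurons of 98 tested, against 33.5% and 35.3% of all genes tested (edgeR). Of the 57 genes higher in wild-type motor neurons, 56 were higher in knockout motor neurons too, which is 98.2% of the wild-type and 93.3% of the knockout list, and the exception was Kcna3, whose wild-type call was lost without endothelial batch 1 or 3, motor neuron batch 1 or 3 or knockout endothelial batch 3 (edgeR adjusted p = 0.0531 to 0.170). Of the 17 lower genes, 16 were lower in both, and the exception was Kcns3. No gene was called in opposite directions. Kcnma1 stood at 79.5, 84.2 and 83.5 CPM in knockout motor neurons and 3.46, 2.30 and 7.71 CPM in knockout endothelial libraries (log2 difference 4.22 ± 0.41, edgeR adjusted p = 6.4e-06). Kcne4 had 36.8, 35.8 and 36.9 CPM in knockout endothelial libraries and 0.457, 0.968 and 0.809 CPM in knockout motor neurons (log2 difference -5.60 ± 0.30, edgeR adjusted p = 1.19e-07). Cacna1g again overlapped between the cell types, with a log2 difference of 0.08 ± 0.11 (edgeR adjusted p = 0.539).

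Kcnj6, which had 81 counts in knockout motor neurons and 2 in knockout endothelial libraries, gave a ratio of 40.1 with a 95% exact counting interval of 10.8 to 337. Kcnj15 again had no count in motor neurons and was at least 17.5-fold higher in endothelial libraries. Scn9a differed by 3.69 ± 0.39 in the knockout fit and 2.80 ± 0.44 in the wild-type fit on the log2 scale. Scn11a and Kcnq5 were called higher in endothelial libraries, and Scn7a, Kcna5, Kcnd1 and Kcnh3 were called higher in motor neurons, in the knockout libraries and not in the wild-type ones. The difference between the genotypes was tested as an interaction, with the result given after the knockout effects. Of these calls, those of Kcnd1 and Scn7a had overlapping groups, and that of Kcnd1 (log2 difference 0.41 ± 0.17, edgeR adjusted p = 0.0479) was lost with the batch as a block (0.41, adjusted p = 0.0669). Kcnd1, Scn7a and Kcna5 were also lost when single libraries were left out. For Kcna5 these were knockout endothelial batches 1 and 2 and knockout motor neuron batch 2 (adjusted p = 0.0559 to 0.119). For Scn7a they were both wild-type and all 3 knockout endothelial libraries, wild-type motor neuron batch 3 and knockout motor neuron batch 1 (0.0514 to 0.366). Without the last of these the log2 difference of Scn7a was 0.51. That library also had a sum of 601 CPM over 6 liver genes, against 0.578 to 2.16 CPM in the other motor neuron libraries, whose part in the value of Scn7a was not tested. For Kcnd1 they were all libraries but knockout endothelial batch 3, wild-type motor neuron batch 2 and knockout motor neuron batch 3 (0.0507 to 0.165). The call of Scn4a in knockout libraries was lost without knockout motor neuron batch 2 (0.0555). In knockout libraries, the endothelial share of the motor neuron level was 2.69 to 86.5% for the 57 genes, with a median of 15.2%, and 3.47 to 11.2% for the pan-neuronal list, with a median of 6.34%.

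No channel gene passed the threshold between Plxnd1 knockout and wild type in either cell type. In endothelial libraries, 0 of 93 channel genes were called in edgeR, against 0.0% of all 18209 genes in each direction, while 3 channel genes and 431 genes in all had an unadjusted p under 0.05. DESeq2 and edgeR with the batch as a block also called 0 channel genes, although over all genes DESeq2 called 28 higher and 6 lower in knockout and the block fit 139 higher and 41 lower. The median log2 difference, knockout over wild type, was -0.06 over the channel genes and -0.01 over all genes. The smallest p belonged to Kcnab1, at 5.32, 6.80 and 6.10 CPM in knockout and 4.01 and 3.49 CPM in wild-type endothelial libraries (log2 difference 0.70 ± 0.22, edgeR unadjusted p = 0.0178, adjusted p = 0.999). Kcnh3, an Elk channel of the forebrain, followed at 2.03, 1.76 and 1.42 against 2.81 and 3.13 CPM (log2 difference -0.77 ± 0.27, edgeR unadjusted p = 0.0259, adjusted p = 0.999).

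For the abundant endothelial channel genes, the genotypes differed by less than the spread between libraries. Cacna1g had 294, 244 and 304 CPM in knockout against 250.3 and 275 CPM in wild-type endothelial libraries, a log2 difference of 0.10 ± 0.12 (edgeR adjusted p = 0.999). Kcnk2 had 85.3, 92.5 and 102 against 98.8 and 89.2 CPM, a log2 difference of -0.01 ± 0.11 (edgeR adjusted p = 0.999). Kcne4 had 36.8, 35.8 and 36.9 against 38.7 and 32.2 CPM, a log2 difference of 0.05 ± 0.12 (edgeR adjusted p = 0.999). The groups overlapped for all 3 genes.

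In motor neurons, 0 of 86 channel genes were called in edgeR, against 0.0% of all 16695 genes higher and 0.012% (2 genes) lower in knockout. DESeq2 and the block fit also called 0 channel genes, and 5 channel genes and 190 genes in all had an unadjusted p under 0.05. In the block fit, the smallest adjusted p values of channel genes were those of Cacna1e (log2 difference 0.41, edgeR adjusted p = 0.137) and Cacna2d1 (0.28, adjusted p = 0.251). Both genes were higher in knockout in each of the 3 batches. Kcna5, a delayed rectifier of heart and vascular smooth muscle, had 2.99, 4.48 and 3.27 CPM in knockout and 1.72, 1.68 and 2.64 CPM in wild-type motor neurons (log2 difference 0.83 ± 0.28, edgeR unadjusted p = 0.0171, adjusted p = 0.9997). It was higher in knockout in each of the 3 batches. Kcnf1 had 12.2, 12.46 and 14.5 against 16.3, 15.7 and 15.5 CPM (log2 difference -0.28 ± 0.12, edgeR unadjusted p = 0.0407, adjusted p = 0.9997) and was lower in knockout in each batch. Cacna2d1 had 163, 201 and 158 against 144, 159 and 127 CPM (log2 difference 0.28 ± 0.12, edgeR unadjusted p = 0.0441, adjusted p = 0.9997).

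Scn3a had 310.0, 290.5 and 329 CPM in knockout and 314, 332 and 300.1 CPM in wild-type motor neurons, and the groups overlapped (log2 difference -0.03 ± 0.08, edgeR adjusted p = 0.9997). The knockout effect was then compared between cell types as an interaction. That test called 0 of 98 channel genes in edgeR, in DESeq2 and in the block fit, against 0.0% of all 19266 genes in edgeR, with 5 channel genes and 352 genes in all at an unadjusted p under 0.05.

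Endothelial libraries from inside the cord and from the meninges differed in many channel genes. Of 88 channel genes tested, 48 were higher in spinal and 13 in meningeal libraries, against 24.8% and 23.0% of all 16213 genes tested (edgeR quasi-likelihood test, adjusted p under 0.05). The median log2 difference, spinal over meningeal, was 1.01 over the channel genes and 0.01 over all genes. Counts were 44 higher and 12 lower in batches 1 to 3 (ventral cord), and 48 and 17 in batches 4 and 5 (whole cord). The share of all genes called in each subset is not given here, so these counts do not compare the dissections. The fit of batches 4 and 5 rested on libraries 4 and 5 of each region alone. Its spinal libraries had like marker sums, with 6289 and 6038 CPM for the endothelial and 3170 and 3136 CPM for the macrophage list. Its standard errors and calls rest on the spread of these few libraries. Groups overlapped for 8 of the 61 called genes, among them Cacna1h, Kcnq5, Kcnk3 and Kcnab3. With the batch as a block, Kcnab3 and Kcnq5 lost their call (0.51 and 0.56, edgeR adjusted p = 0.0878 and 0.0524), while Kcna1 and Kcnj14 gained one (-1.20 and 0.88, adjusted p = 0.0269 and 0.0276). The calls of Kcnab3 and Kcnk3 were each lost without any of 8 libraries in turn and that of Kcng1 without any of 7, and that of Kcnh1 was lost without meningeal batch 3 (edgeR adjusted p = 0.0539). Marker lists differed as well: the pan-neuronal list summed to 1522 to 3402.5 CPM in spinal and 296 to 767 CPM in meningeal libraries, with all 16 genes higher in spinal libraries, all 10 interneuron genes, which summed to 91.8 to 237 CPM against 1.97 to 8.17 CPM, were higher in spinal libraries, and 9 of 10 neural progenitor genes and 16 of 20 endothelial genes were also higher there. All 10 mesenchymal genes were higher in meningeal libraries, where they summed to 15144 to 21491 CPM against 1589 to 2856 CPM. The part of these cells in the channel differences was not tested.

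**Figure D4:**
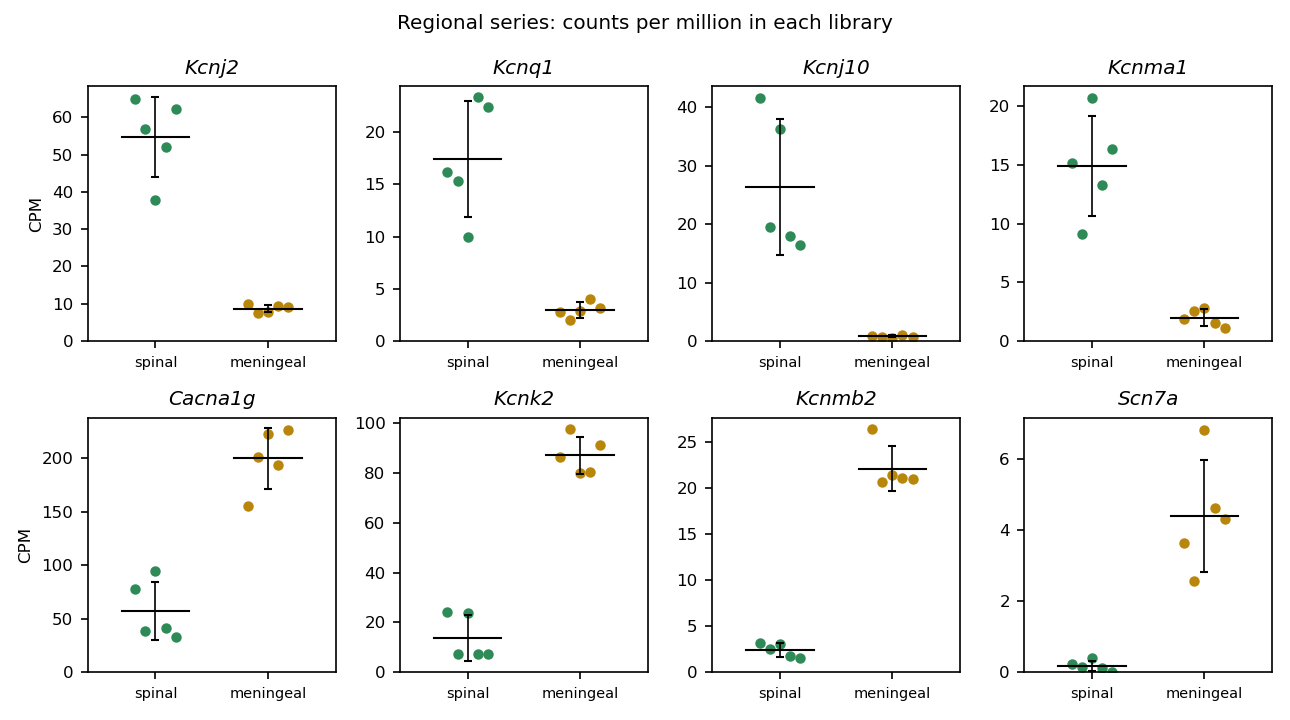
CPM (linear axes from 0) of 8 channel genes in each of the 5 spinal and 5 meningeal endothelial libraries (points), with the mean of each group (line) and its SD (bars). Kcnj2, Kcnq1, Kcnj10 and Kcnma1 are higher in all spinal than in any meningeal library, and Cacna1g, Kcnk2, Kcnmb2 and Scn7a are higher in all meningeal than in any spinal library.

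Of 8 Kcnj genes tested, which encode inward rectifiers, 6 were higher in spinal libraries and none was called lower in edgeR. Kcnj12 was called lower in DESeq2 (log2 difference -0.74, adjusted p = 0.0334). Kcnj2 stood at 65.1, 56.9, 37.7, 52.1 and 62.2 CPM in spinal and 9.80, 7.57, 7.76, 9.25 and 9.11 CPM in meningeal libraries. Every spinal library was above every meningeal one, with a log2 difference of 2.65 ± 0.16 (edgeR adjusted p = 1.48e-07). Batches 1 to 3 gave 2.63 ± 0.23 and batches 4 and 5 gave 2.63 ± 0.12. At 10.1 ± 1.98 RPKM (SD, n = 5) Kcnj2 was the fourth channel gene per length in spinal libraries, against 1.598 ± 0.180 RPKM in meningeal ones. Kcnj10 had 41.6, 19.6, 36.3, 18.01 and 16.4 CPM in spinal and 0.910, 0.706, 0.584, 1.04 and 0.746 CPM in meningeal libraries (log2 difference 5.02 ± 0.33, edgeR adjusted p = 2.98e-07). Spinal batches 1 and 3 were its highest, and they also had the highest sums of the Schwann and neural crest list, 836 and 873 CPM against 467 to 494 CPM, a list that holds the radial glial gene Fabp7. The neural progenitor, sensory neuron, motor neuron, and muscle and cartilage lists were highest in the same spinal libraries. The part of any of these lists was not tested. Kcnj9 had 1.64, 0.983, 1.66, 1.24 and 0.879 CPM in spinal libraries and 1 count in all 5 meningeal ones together, a ratio of 118 with a 95% exact counting interval of 20.7 to 4689.

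Kcnq1, Kcnq3 and Kcnq5 were higher in spinal libraries, although the call of Kcnq5 (log2 difference 0.58 ± 0.21, edgeR adjusted p = 0.0404) was lost without spinal batch 1, 2 or 5 or meningeal batch 1, 4 or 5 (adjusted p = 0.0626 to 0.107). Kcnq3 had 15.3, 7.70, 19.4, 13.6 and 11.2 CPM in spinal and 1.499, 1.86, 1.98, 1.27 and 0.959 CPM in meningeal libraries (log2 difference 3.15 ± 0.28, edgeR adjusted p = 2.15e-06). The groups did not overlap. Kcnq1, which was lower in motor neurons, had 16.2, 15.3, 9.93, 23.4 and 22.4 CPM in spinal and 2.73, 1.99, 2.86, 4.06 and 3.14 CPM in meningeal libraries, also with no overlap (log2 difference 2.55 ± 0.26, edgeR adjusted p = 6.07e-06).

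Several neuronal genes of the other classes were likewise higher in spinal libraries. Kcnk9 had 6.08, 5.63, 14.5, 6.59 and 7.76 CPM in spinal and 0.107, 0.128, 0.175, 0.236 and 0.160 CPM in meningeal libraries (log2 difference 5.58 ± 0.38, edgeR adjusted p = 3.09e-07). Kcnh4 had 4.09, 2.403, 6.60, 4.11 and 3.72 against 0.0535, 0.193, 0.292, 0.189 and 0.107 CPM (log2 difference 4.61 ± 0.40, edgeR adjusted p = 1.95e-06). Kcnc1 had 15.3, 8.58, 20.8, 15.1 and 12.8 against 0.857, 0.449, 1.34, 0.519 and 0.693 CPM (log2 difference 4.23 ± 0.32, edgeR adjusted p = 7.06e-07), and Kcnc2 and Kcnc4 were higher too. Other differences of this kind were those of Kcnk10 (3.67 ± 0.33), Kcnip1 (2.98 ± 0.33) and Kcnh8 (2.96 ± 0.34) on the log2 scale. Over the 48 genes higher in spinal libraries, the meningeal level was 0.737 to 73.5% of the spinal one, with a median of 25.9%, and over the pan-neuronal list it was 4.45 to 63.6%, with a median of 17.0%. Of the 48, 40 lay within the range of that list, 4 lay above it (Cacna1h, Kcnab3, Kcnk3 and Kcnq5) and 4 below it (Kcnh4, Kcnj9, Kcnj10 and Kcnk9). The 48 were picked as higher in spinal libraries from the same values, which bounds their share from above. The count within the range is therefore no test of a link to the list. The 57 genes higher in wild-type motor neurons were not picked by region. Their meningeal level was 0 to 221% of the spinal one, with a median of 33.5%. Of these 57, 32 lay within the range of the list, 21 above it and 4 below it.

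Of the calcium channel genes, Cacna1a had 60.5, 49.9, 57.9, 51.6 and 50.6 CPM in spinal and 17.2, 18.04, 17.4, 20.2 and 19.9 CPM in meningeal libraries (log2 difference 1.54 ± 0.10, edgeR adjusted p = 2.35e-07), and Cacna2d1 had 42.3, 50.5, 48.9, 35.5 and 42.2 against 19.3, 22.7, 23.4, 18.3 and 22.1 CPM (log2 difference 1.05 ± 0.12, edgeR adjusted p = 1.72e-05). Both were without overlap. Cacna1h was called at 0.44 ± 0.14 on the log2 scale (edgeR adjusted p = 0.0203), its groups overlapped, and the call was lost in batches 4 and 5 (0.19, edgeR adjusted p = 0.0709) and without any of 5 libraries in turn, namely spinal batches 1, 2 and 3 (adjusted p = 0.0512, 0.0510 and 0.0595) and meningeal batches 1 and 2 (0.0823 and 0.0628). Cacna1g went the other way, with 77.6, 38.6, 94.4, 41.4 and 33.5 CPM in spinal and 156, 202, 222, 194 and 226 CPM in meningeal libraries (log2 difference -1.81 ± 0.27, edgeR adjusted p = 0.000143). Spinal batches 1 and 3 were again apart from the other spinal libraries. The smooth muscle L-type pore Cacna1c was higher in meningeal libraries as well, with a log2 difference of -1.10 ± 0.20 for spinal over meningeal.

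The background channel Kcnk2 was the most abundant potassium channel gene per length in meningeal libraries, at 20.7 ± 1.78 RPKM (SD, n = 5). It had 86.2, 97.4, 79.9, 80.2 and 91.1 CPM there and 24.3, 7.26, 23.6, 7.18 and 7.19 CPM in spinal libraries, and spinal batches 1 and 3 stood above the other spinal libraries while staying below every meningeal one. The same 2 spinal libraries had the highest spinal sums of several lists. These were the sensory neuron (295 and 307 CPM against 147 to 205 CPM), muscle and cartilage (317 and 357 against 121 to 134 CPM), and Schwann and neural crest lists (836 and 873 against 467 to 494 CPM). The neural progenitor (3121 and 3107 against 2436 to 2572 CPM) and motor neuron lists (370 and 443 against 298 to 345 CPM) were among them too. Fabp7 is in both the neural progenitor and the Schwann and neural crest lists, so their sums are not separate. The part of any of these lists was not tested. The log2 difference, spinal over meningeal, was -2.64 ± 0.36 (edgeR adjusted p = 7.3e-05), with -2.28 ± 0.40 in batches 1 to 3 and -3.59 ± 0.11 in batches 4 and 5. Kcnmb2, a subunit that gives Kcnma1 channels fast inactivation, had 26.5, 20.7, 21.4, 21.1 and 21.0 CPM in meningeal and 3.16, 2.51, 3.10, 1.76 and 1.55 CPM in spinal libraries (log2 difference -3.19 ± 0.21, edgeR adjusted p = 2.46e-07). The sodium-activated channel Kcnt2 had 22.01, 39.5, 28.1, 16.7 and 21.2 against 8.42, 9.18, 7.05, 2.61 and 3.88 CPM (log2 difference -2.03 ± 0.33, edgeR adjusted p = 0.000298). Kcnh6, a close relative of Kcnh2, had 1.93, 2.12, 3.501, 1.65 and 1.55 against 0.351, 0.328, 0.404, 0.196 and 0.207 CPM (log2 difference -2.81 ± 0.34, edgeR adjusted p = 2.33e-05), and the silent subunit Kcns3 differed by -1.33 ± 0.29 overall and was not called in batches 1 to 3 (-1.06, edgeR adjusted p = 0.0509).

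Of the sodium channel genes, Scn10a and Scn7a were higher in the meninges without overlap. Scn10a had 3.16, 3.47, 6.65, 2.97 and 2.24 CPM in meningeal and 0.175, 0, 0.135, 0.0653 and 0 CPM in spinal libraries (log2 difference -5.49 ± 0.58, edgeR adjusted p = 8.35e-06). Scn7a had 3.64, 2.57, 6.83, 4.62 and 4.32 against 0.234, 0.164, 0.404, 0.131 and 0 CPM (log2 difference -4.47 ± 0.50, edgeR adjusted p = 1.37e-05). Markers of peripheral nerve were divided between the regions. Of 7 Schwann and neural crest genes, 5 were higher in meningeal and 1 in spinal libraries, and of 12 sensory neuron genes 5 were higher in meningeal and 3 in spinal libraries. The first list summed to 165 to 239 CPM in meningeal and 467 to 873 CPM in spinal libraries, and the second to 224 to 312 CPM and 147 to 307 CPM. The first list shares Fabp7 with the neural progenitor list, of which 9 of 10 genes were higher in spinal libraries. Its sum is thus not one of peripheral nerve alone. The neural crest gene Sox10 stood at 22.4 ± 7.21 CPM (SD, n = 5) in meningeal and 8.20 ± 4.86 CPM in spinal libraries. The part of these cells in the sodium channel differences was not tested.

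Channel genes that were not called between cord and meninges included several of the most abundant. Kcne4 had 23.1, 46.4, 17.5, 23.9 and 24.4 CPM in spinal and 33.6, 21.2, 19.5, 36.1 and 39.9 CPM in meningeal libraries (log2 difference -0.15 ± 0.27, edgeR adjusted p = 0.663). Kcnk6 had 16.3, 19.8, 16.3, 31.5 and 28.9 against 16.9, 16.1, 16.0, 26.4 and 21.0 CPM (log2 difference 0.22 ± 0.22, edgeR adjusted p = 0.43). Both were called in batches 4 and 5 taken alone, Kcne4 as lower in spinal libraries (-0.67, edgeR adjusted p = 0.000118) and Kcnk6 as higher (0.33, edgeR adjusted p = 0.0378). Kcnmb4, the neuronal subunit of Kcnma1 channels, was the highest channel gene per length in spinal libraries, at 14.1 ± 3.26 RPKM (SD, n = 5) against 13.8 ± 1.98 RPKM in meningeal ones, with a log2 difference of 0.04 ± 0.17 (edgeR adjusted p = 0.862). Kcnmb4 shares 75.3% of its exon bases with antisense genes, which the strand-specific counting of the regional series separates.

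The comparisons of cell type and of region use different libraries, and their calls overlapped in part. Of the 57 genes higher in wild-type motor neurons, 37 were higher in spinal endothelial libraries, which is 64.9% of the first list and 77.1% of the 48 genes of the second. Of the 57, 55 were tested between regions. Of all 88 channel genes tested there, 54.5% were higher in spinal and 14.8% in meningeal libraries. Over all genes tested these shares were 24.8% and 23.0%. The exceptions in the opposite direction were Kcnab2, Kcnb2 and Kcnh1, higher in motor neurons and in meningeal libraries. The 17 genes higher in endothelial cells divided by region. Of these, 6 were higher in spinal libraries (Kcnj2, Kcnj10, Kcnj15, Kcnk13, Kcnmb1 and Kcnq1), which is 35.3% of the 17, and 5 were higher in meningeal libraries (Cacna1c, Kcnk2, Kcnmb2, Kcns3 and Kcnt2), which is 29.4%. Of the 17, 16 were tested between regions. The pericyte and smooth muscle list, which marks cells known to use Kcnmb1, summed to 3479 to 8677 CPM in spinal and 1462 to 1929 CPM in meningeal libraries, with 5 of its 10 genes called higher in spinal and 4 in meningeal libraries. The macrophage list summed to 1040 to 3170 CPM in spinal and 1354 to 2547 CPM in meningeal libraries, and the part of these cells in this division was not tested.

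**Figure D5:**
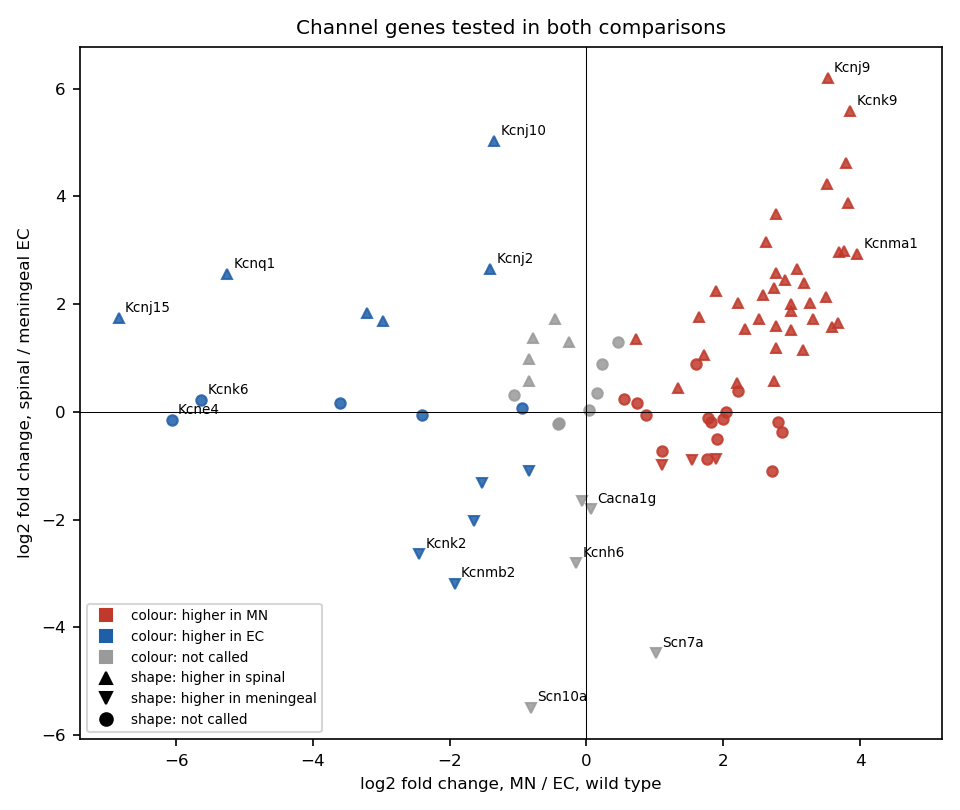
Log2 fold change of each channel gene tested in both comparisons, wild-type motor neuron over endothelial (x axis) against spinal over meningeal endothelial (y axis), from the edgeR fits; colour gives the call in the first and shape the call in the second. Of the genes higher in motor neurons (red), 37 are higher in spinal libraries (upward triangles), and the genes higher in endothelial cells (blue) fall on both sides of 0.

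Genes whose products assemble with these channels or set excitability beside them, a list of 39, followed the cell types as well. Of 36 tested in wild-type libraries, 28 were higher in motor neurons and 2, Scn2b and Scn4b, were lower. Scn3b, a sodium channel beta subunit gene, had 228 ± 37.4 CPM (SD, n = 3) in motor neurons and 17.7 ± 10.8 CPM (SD, n = 2) in endothelial libraries (log2 difference 3.69 ± 0.52, edgeR adjusted p = 0.00011). The calcium channel beta subunit gene Cacnb3 had 405 ± 22.1 against 98.0 ± 22.9 CPM (log2 difference 2.05 ± 0.16, edgeR adjusted p = 2.07e-06). The pacemaker channel gene Hcn4 had 91.3 ± 10.5 against 8.56 ± 5.77 CPM (log2 difference 3.41 ± 0.43, edgeR adjusted p = 5.43e-05), and Ank3, the ankyrin that anchors Scn and Kcnq channels at the axon initial segment, had 380.0 ± 34.4 against 51.5 ± 22.4 CPM (log2 difference 2.88 ± 0.36, edgeR adjusted p = 4.28e-05). In knockout libraries 32 of 36 were higher in motor neurons and 2 lower. Between regions, 17 of 33 were higher in spinal and 5, Scn4b and Nalcn among them, in meningeal libraries. None was called between Plxnd1 knockout and wild type in either cell type in edgeR.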

How the data were processed

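The submitters deposited a table of raw read counts per gene for each of 22 libraries of polyadenylated RNA. Per the submitters' processing notes, reads were trimmed with Trimmomatic 0.39, aligned to mm10 (GRCm38) with STAR 2.5.3a and counted with featureCounts 1.6.4 on GENCODE genes. Per the file headers, the knockout series was counted as unstranded single reads and the regional series as reverse-strand read pairs, so levels were not compared between series. The library labelled wild-type endothelial batch 2 repeated another library's counts and was left out.

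Counts of all genes were fitted with edgeR 4.0.16 (R 4.3.3; TMM scaling, filterByExpr with a minimum count of 10, quasi-likelihood F-test, Benjamini-Hochberg threshold 0.05), with a mean per group. The comparisons of cell types and the interaction came from 1 fit of all usable libraries of the knockout series, whose groups share an estimate of the spread. Knockout and wild type were compared in separate fits of the endothelial and of the motor neuron libraries. The regional series had its own fit. CPM are counts scaled to TMM library size, and RPKM are CPM per kilobase of exon. Log2 differences are those of the fits at their default settings. A prior count of 2 was used only for the log2 levels behind the batch correlations. Values after ± are SE for log2 differences and SD otherwise. The procedure was tested on simulated data. Libraries hold 15685784 to 27035395 counts. Counting intervals (95%, exact) and floors (3 counts) cover counting error only. The labels name no separate cultures or animals behind the pooled libraries, and p-values here rest on the spread of the libraries alone, which may be technical.

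The labels call the replicate number a batch. The block fit takes same-numbered libraries as paired, and the main fit does not use this pairing. Deviations of same-numbered libraries from their group means correlated at 0.397 and 0.468 between genotypes in endothelial cells and 0.271 to 0.318 in motor neurons. The correlations were 0.115 to 0.251 between cell types and -0.273 to 0.303 between regions. The fit without the block is the main result.

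Named genes were, per comparison, the 10 called genes with the largest change in each direction, the 10 with the highest CPM, the 5 with the smallest p where fewer than 5 were called, and the leading gene of each family per group. Some genes that the rule takes are not reported here. Genes outside this rule that are named were chosen after their values were seen. The channel genes, marker lists and tests were chosen with earlier results of these data known. Alternatives were DESeq2 1.42.0, RLE scaling, no filter, a filter at 5 CPM, the batch block, leaving out each library, subsets of libraries by genotype, and batches 1 to 3 or 4 and 5.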

Additional observations from a re-analysis of the deposited data

Results flagged for a closer look

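In the regional series, 52 sets of 5 libraries (a channel gene in the spinal or the meningeal group) were searched for a library far from the other 4 by Dixon's ratio, whose critical value for 5 samples is 0.71, and 5 were found. Chance alone flags about 1 in 20 groups. Kcnk10 stood at 16.85 CPM in spinal batch 3, against 7.046 to 9.466 CPM in the other spinal libraries. Kcnk9 stood at 14.47 CPM in the same library, against 5.626 to 7.759 CPM in the others. Spinal batch 3 also had the highest pan-neuronal sum, 3402.5 CPM, and its part in these values was not tested. Scn10a stood at 6.652 CPM in meningeal batch 3, against 2.238 to 3.466 CPM in the other meningeal libraries. Meningeal batch 3 also had the highest sums of the pan-neuronal list, 767 CPM, and of the sensory neuron list, 312 CPM, and their part was not tested either. Kcnmb2 stood at 26.45 CPM in meningeal batch 1, against 20.73 to 21.42 CPM in the others. Kcnj9 stood at 0.04719 CPM in meningeal batch 4, which is a single count, and at 0 in the other meningeal libraries.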

How the results depend on the processing

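Between cell types and between regions, 63 of 74 wild-type, 72 of 78 knockout and 49 of 61 regional calls were kept under every alternative that tested the gene. Of those tested under all 17 alternatives, 52 of 59, 60 of 62 and 33 of 36 were kept. The filter at 5 CPM, which tests fewer genes, gave 10 genes higher in wild-type endothelial cells in place of 17, 11 in knockout in place of 18, and 29 spinal and 7 meningeal genes in place of 48 and 13. Leaving out 1 library at a time gave 49 to 58 higher and 16 to 18 lower in wild-type motor neurons, 55 to 62 and 18 to 19 in knockout, 44 to 45 and 12 to 15 between regions, and 0 in both knockout comparisons and the interaction. DESeq2 gave 56 and 19, 59 and 18, and 48 and 14 in these 3 comparisons. With the batch as a replicate block, counts were 56 and 16, 59 and 18, and 47 and 14, and 0 in the knockout comparisons and the interaction, and the block changed no other call than those given above.

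Differences near 0 changed sign without passing the threshold. Kcnk2 between endothelial genotypes was 0.0051 in DESeq2, 0.0052 with RLE scaling and 0.0029 with the 5 CPM filter. Leaving out 1 library at a time, endothelial knockout differences ranged from -0.0506 to 0.1083 for Cacna1c, -0.0788 to 0.193 for Cacna1h, -0.2303 to 0.1155 for Cacna2d1, -0.2231 to 0.4376 for Kcnd3, -0.0815 to 0.1971 for Kcne4, -0.084 to 0.0778 for Kcnk2 and -0.2225 to 0.1807 for Kcnt2. Those of motor neurons ranged from -0.2499 to 0.0902 for Cacna2d2, -0.23 to 0.0509 for Cacna2d3, -0.0199 to 0.1068 for Kcnh2 and -0.0731 to 0.0203 for Scn3a. Cacna1g between cell types ranged from -0.0079 to 0.1353 in wild-type and -0.015 to 0.1641 in knockout libraries. Between regions, the R-type pore Cacna1e was called in batches 4 and 5 only (0.3637, edgeR adjusted p = 0.0110). The cause of these changes was not tested. The wild-type endothelial group has 2 libraries, and 21 channel genes under 1 CPM in every library lie near the limit of these depths.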
